A study of Homo sapiens with 6 samples.

Results

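Cohesin and condensin are ring-shaped protein complexes that hold and fold chromosomes. The counts described here are those of 10 genes, taken by symbol: the cohesin subunits SMC1A, SMC3, RAD21, STAG1 and STAG2, the cohesin loader NIPBL, and the condensin subunits SMC2, SMC4, NCAPH and NCAPD2. All 10 symbols had a row among the 53719 gene rows of the count table, 9 rows held counts, and the same 9 could be tested. Both groups were cells of H9, a widely used line of human embryonic stem cells, grown in RSeT medium for a naive state. The ALR knockdown group (3 libraries, a, b and c) was transfected with a gapmer, a short antisense oligonucleotide, directed at the RNA of alpha satellite (ALR), the repeat found at human centromeres. The control group (3 libraries, a, b and c) received a control gapmer. RNA was taken from both groups after 48 hours. The labels do not say whether the 3 libraries of a group came from separate cultures, so the p-values measure the spread between these libraries, which may be technical. The level of ALR itself was not analysed here, so the depth of the knockdown was not checked.

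Cohesin is built on the ATPases SMC1A and SMC3, whose heads are bridged by the kleisin RAD21, and STAG1 or STAG2 binds RAD21 as an alternative subunit. It keeps sister chromatids together from replication to anaphase, most visibly at the centromere, and extrudes chromatin loops in interphase. NIPBL, with its partner MAU2, loads cohesin and drives loop extrusion. Condensin compacts chromosomes for mitosis: SMC2 and SMC4 form its ring, NCAPH is the kleisin of condensin I, and NCAPD2 is one of its HEAT-repeat subunits. Alpha satellite, whose RNA was targeted, is the DNA on which the kinetochore forms. RNA counts do not show where either complex sits on it.

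The promoter windows of 3 members are shown because these members carry the contrasts described below: STAG1 had the largest difference between groups, and STAG2 and NCAPD2 were the members whose libraries did not overlap between groups. Each window runs from 250 bases before to 50 bases after a RefSeq transcript start (GRCh38.p14), and is printed 5′ to 3′ on the gene's strand. The windows lie at chr3:136752329-136752628 (minus strand), chrX:123960310-123960609 (plus strand, the first of 3 STAG2 starts) and chr12:6493852-6494151 (plus strand). Capitals mark matches on either strand to 3 motifs of cell cycle promoters: the CCAAT box (CCAAT), the cell cycle genes homology region (TTTGAA) and an E2F motif (TTTGGCGC or TTTCCCGC). No match overlapped another in these windows.
STAG1: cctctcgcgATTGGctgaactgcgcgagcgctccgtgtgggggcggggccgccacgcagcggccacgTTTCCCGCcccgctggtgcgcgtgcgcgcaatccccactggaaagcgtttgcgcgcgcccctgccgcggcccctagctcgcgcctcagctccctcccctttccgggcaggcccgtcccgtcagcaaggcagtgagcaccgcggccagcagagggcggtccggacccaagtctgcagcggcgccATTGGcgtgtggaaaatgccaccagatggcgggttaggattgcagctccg
STAG2: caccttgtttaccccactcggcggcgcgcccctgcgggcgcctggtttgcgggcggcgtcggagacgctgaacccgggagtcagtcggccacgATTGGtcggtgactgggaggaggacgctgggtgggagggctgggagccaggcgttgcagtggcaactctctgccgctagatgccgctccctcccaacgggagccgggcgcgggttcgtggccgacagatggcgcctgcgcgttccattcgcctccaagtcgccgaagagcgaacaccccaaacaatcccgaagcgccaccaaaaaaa
NCAPD2: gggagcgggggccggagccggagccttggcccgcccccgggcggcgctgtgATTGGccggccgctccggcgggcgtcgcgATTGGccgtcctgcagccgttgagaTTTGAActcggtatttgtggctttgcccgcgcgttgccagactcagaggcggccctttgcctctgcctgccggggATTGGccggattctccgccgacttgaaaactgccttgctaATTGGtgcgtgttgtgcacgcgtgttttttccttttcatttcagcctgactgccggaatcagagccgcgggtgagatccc

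NCAPD2 held 4 CCAAT boxes and 1 homology region, STAG1 held 2 CCAAT boxes and 1 E2F motif, and this STAG2 window held 1 CCAAT box. The second STAG2 window held no match, and the third held 2 CCAAT boxes and 1 E2F motif. Windows were found for 9 of the 10 genes, 14 windows in all. A CCAAT box was present in 5 of the 14 (34.6% of 35116 RefSeq windows of the same length), the homology region in 4 (15.2% of all) and the E2F motif in 4 (2.27% of all). The homology region occurred once each in windows of SMC3, SMC2, SMC4 and NCAPD2. The 3 printed windows had 37, 34 and 31 CpG dinucleotides, and the 14 windows had 16 to 37, where the median over all windows was 14. The shares over all windows were not matched for CpG content, and some genes had more than 1 window. No enrichment was tested. A match is a run of letters and was not tested as a binding site.

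Total counts ran from 25087629 to 36576752 per library. Knockdown library a stood apart, with counts in 29678 rows against 25898 to 26788 in the other 5, so member values are also given without it. POU5F1, DPPA4 and LIN28A, markers of pluripotent cells, were at 99.8, 941 and 1541 CPM in the controls and at 133, 899 and 1757 after knockdown (CPM, counts on a common scale of library size, here after TMM scaling). POU5F1 and LIN28A were higher in every knockdown library than in any control, with log2 fold changes of 0.42 ± 0.10 (SE; adjusted p = 0.0948 in edgeR, 0.005 in DESeq2) and 0.19 ± 0.07 (adjusted p = 0.269 in edgeR). Of the 8 tested pluripotency genes, 3 were higher in every knockdown library (9.55% of all genes) and 2 were lower (9.37% of all genes). The lower 2 were DPPA4, at -0.06 ± 0.06 (adjusted p = 0.683, edgeR), and LIN28B, at -0.16 ± 0.06 (adjusted p = 0.266, edgeR). The part of the pluripotency genes in the member values was not tested. Of 2 defining naive markers, KLF17 had 1 to 10 counts per library and DPPA5 stayed between 0.8 and 1.2 CPM, both near absent under the naive label, whereas DPPA3 and TFCP2L1, also naive markers, were at 18.8 and 27.0 CPM in the controls. Summed markers of trophectoderm and amnion (11 genes) were at 56.7 to 59.0 CPM after knockdown and 57.5 to 65.0 in the controls, nearly all of it TFAP2C. Those of germ layers (10 genes) were at 4.76 to 6.73 and 4.64 to 5.17 CPM, and those of fibroblasts (8 genes, mostly COL1A2 and COL1A1) at 92.5 to 102 and 95.2 to 108 CPM. In the fibroblast list PDGFRB (1.58 ± 0.229 against 0.715 ± 0.327 CPM, SD) and POSTN (1.02 ± 0.350 against 0.535 ± 0.0353) were higher in every knockdown library than in any control (9.55% of all genes). In libraries a, b and c PDGFRB had 49, 44 and 43 counts after knockdown and 19, 33 and 15 in the controls. POSTN had 37, 38 and 16 against 16, 17 and 18, and both were too low to size a difference at this depth. COL1A2 was at 67.0 ± 6.08 against 77.0 ± 5.28 CPM. In edgeR 0 of 5 tested genes passed, with 3 at an unadjusted p under 0.05 (14.3% of all genes). LUM had at most 1 count in any library. In bulk RNA, fewer cells of a type and less RNA per cell cannot be told apart.

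None of the 9 tested members passed the threshold between the groups, by edgeR's quasi-likelihood test. Among all 19721 tested genes, edgeR called 155 at a Benjamini-Hochberg adjusted p of 0.05 (0.786%). At an unadjusted p under 0.05 there was 1 member, STAG1, where 14.3% of all genes lay under that value. Differences were small throughout, with log2 fold changes of -0.22 to 0.12 and a median of 0.04 (0.02 over all genes). Of the 9, 6 were above 0, compared with 54.4% of all genes. The libraries of the groups did not overlap in 1 member that was higher in knockdown (NCAPD2; 9.55% of all genes) and in 1 that was lower (STAG2; 9.37% of all genes). The members had 1869 to 11870 counts per library, and the 95% intervals, taken gene by gene, reached from 0.752-fold (the low end for STAG1) to 1.20-fold (the high end for SMC1A and NCAPD2). Larger differences therefore lie outside the intervals of all 9. DESeq2 and limma-voom also called 0 of the 9. Without knockdown library a the log2 fold changes ran from -0.17 (STAG1) to 0.14 (NCAPD2), and 0 of the 9 passed in edgeR.

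**Figure D1:**
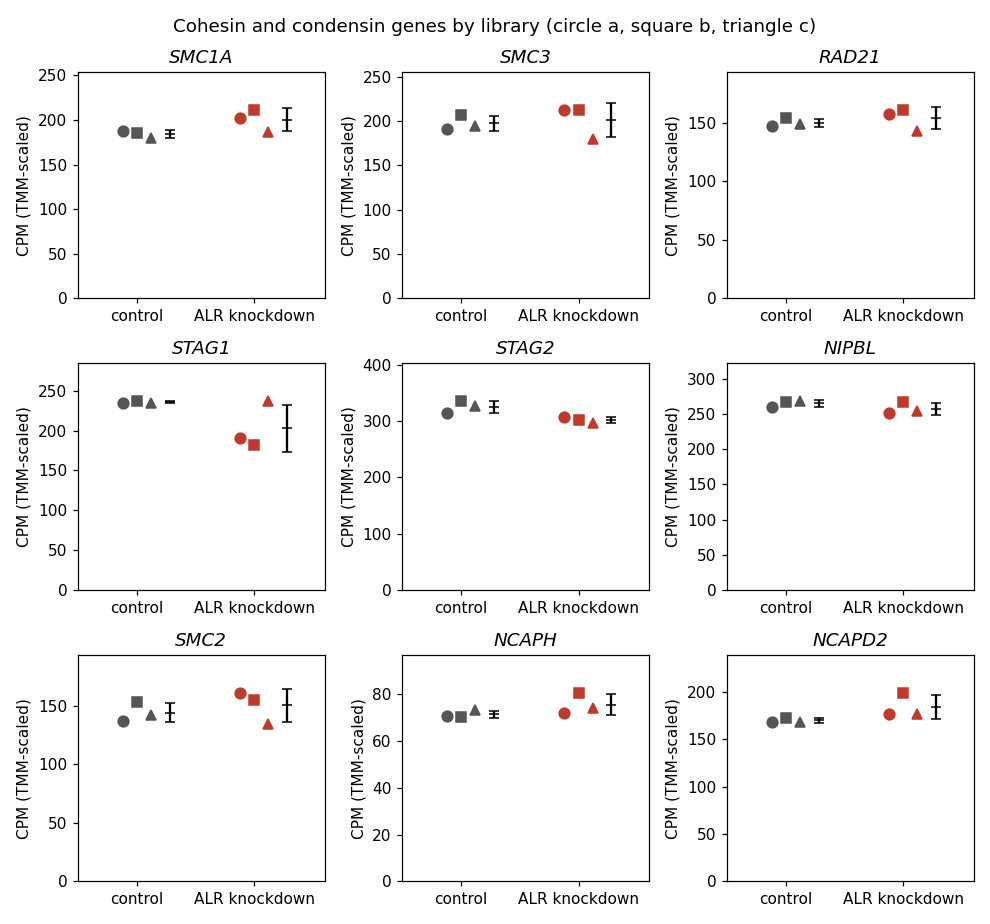
TMM-scaled CPM of the 9 members with counts, by library (grey, control; red, ALR knockdown; circle a, square b, triangle c; bars, mean ± SD of 3 libraries). In STAG1 knockdown libraries a and b lie below the controls at 190 and 182 CPM, while c lies among them at 237.

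SMC4 (chr3:160399650-160434953, plus strand), one of the condensin ATPases, was listed at 0 in all 6 libraries. In GENCODE 29 the whole of SMC4 lies inside the span of AC079594.2 on the opposite strand, with which and other neighbours it shares 25.6% of its exonic bases. Across the table, 1156 of 1397 protein-coding genes that lie inside another gene's span were listed at 0 (82.7%), compared with 709 of 16828 that do not (4.21%). Of the 600 that lie inside another gene without sharing an exonic base, 532 were at 0 (88.7%). The pluripotency gene SOX2, which also lies inside another gene, was listed at 0 in all 6 libraries as well. The 0 of SMC4 is therefore no measure of its RNA, and no fold change is given for it.

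Values below are in the order of libraries a, b and c. SMC1A (chrX:53374149-53422728, minus strand), the ATPase that pairs with SMC3, had 202, 212 and 186 CPM after knockdown and 188, 186 and 180 in the controls. Knockdown a and b lay above all controls, and knockdown c lay between them. The means were 200 ± 12.8 and 185 ± 4.20 CPM (SD, n = 3 each), and the log2 fold change was 0.12 ± 0.07 (SE; adjusted p = 0.459, edgeR). Its partner SMC3 (chr10:110567695-110606048, plus strand) had 212, 213 and 179 CPM after knockdown and 191, 207 and 194 in the controls. Here the knockdown libraries held both the highest values and the lowest one, and the log2 fold change was 0.03 ± 0.08 (adjusted p = 0.893, edgeR). RAD21 (chr8:116845934-116874776, minus strand), the kleisin that closes the ring and is cut by separase at anaphase, had 157, 161 and 143 CPM after knockdown and 147, 154 and 149 in the controls. The order was that of SMC3, with knockdown c lowest of all 6, and the log2 fold change was 0.04 ± 0.07 (adjusted p = 0.837, edgeR). RAD21 shares 14.2% of its exonic bases with other annotated genes, RAD21-AS1 among its neighbours, and the strand setting of the counting is not given in the sources used here.

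STAG1 (chr3:136336236-136752378, minus strand) encodes the form of the subunit that is known for telomere cohesion and for cohesin at CTCF sites. It had 190, 182 and 237 CPM after knockdown and 235, 237 and 235 in the controls. The controls were nearly equal, knockdown a and b were well below them, and knockdown c was among them. The means were 203 ± 29.6 and 236 ± 1.27 CPM, and the log2 fold change was -0.22 ± 0.09 (95% interval -0.41 to -0.02; adjusted p = 0.307, edgeR). With all 6 libraries this does not pass. Without knockdown library c it was -0.36 ± 0.05 (adjusted p = 0.00256, edgeR), but that fit called 6.40% of all genes, and STAG1 was the only member among them. Without knockdown library a it was -0.17 and without b -0.15, with edgeR adjusted p of 0.493 and 0.592. STAG1 overlaps PCCB and shares 21.2% of its exonic bases with other annotated genes.

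STAG2 (chrX:123960560-124102656, plus strand), the alternative subunit that is prominent in centromere cohesion, was lower in every knockdown library than in any control. It had 307, 302 and 297 CPM after knockdown and 314, 335 and 327 in the controls. The gap between the groups was narrow, from 307 to 314 CPM, and the means were 302 ± 4.94 and 325 ± 10.7 CPM. The log2 fold change was -0.11 ± 0.06 (95% interval -0.24 to 0.03; adjusted p = 0.458, edgeR). NIPBL (chr5:36876769-37066413, plus strand), the loader, had 251, 267 and 254 CPM after knockdown and 260, 267 and 269 in the controls. Its groups overlapped and the log2 fold change was -0.04 ± 0.06 (adjusted p = 0.797, edgeR).

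Of the condensin genes, SMC2 (chr9:104088263-104141419, plus strand), the ATPase shared by condensin I and II, had 161, 155 and 135 CPM after knockdown and 137, 153 and 142 in the controls. As with SMC3 and RAD21, knockdown a and b were the highest and knockdown c the lowest of the 6. The log2 fold change was 0.06 ± 0.08 (adjusted p = 0.773, edgeR). NCAPH (chr2:96335766-96377091, plus strand) had 72.1, 80.7 and 74.0 CPM after knockdown and 70.9, 70.4 and 73.1 in the controls, and the log2 fold change was 0.08 ± 0.07 (adjusted p = 0.622, edgeR). Knockdown b was the highest and the groups overlapped through knockdown a. NCAPD2 (chr12:6494102-6531955, plus strand) had 176, 199 and 177 CPM after knockdown and 169, 173 and 169 in the controls. All 3 knockdown libraries lay above all controls, a and c by a few CPM only, and the means were 184 ± 13.1 and 170 ± 2.57 CPM. The log2 fold change was 0.12 ± 0.07 (95% interval -0.03 to 0.26; adjusted p = 0.469, edgeR), and 0.05 without knockdown library b.

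**Figure D2:**
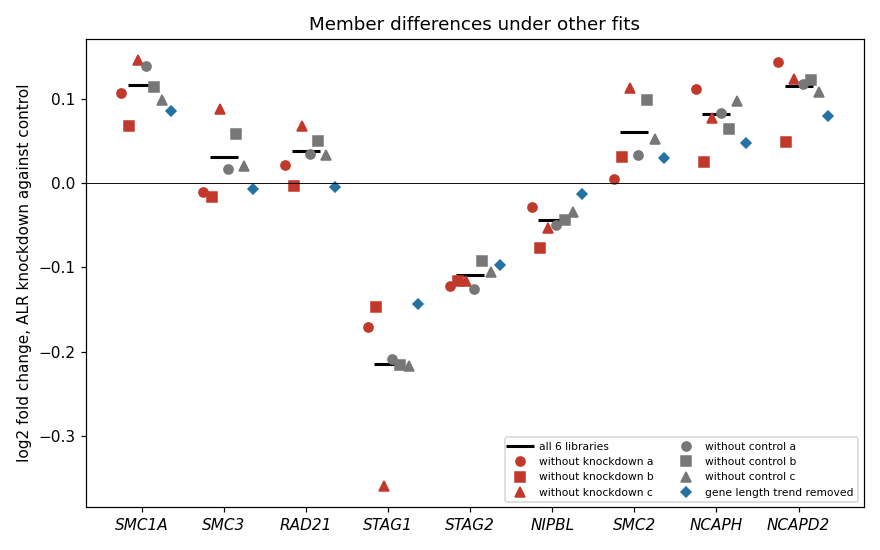
Log2 fold change of each member (ALR knockdown against control) with all 6 libraries (black bar), without each library in turn (red, a knockdown library left out; grey, a control library) and with the trend on gene length removed (blue). SMC3 and RAD21 lie on both sides of 0, and STAG1 spreads most, from -0.36 without knockdown c to -0.14 with the length trend removed.

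Ratios of counts within a library need no scaling between libraries. The STAG2 to STAG1 ratio was 1.61, 1.66 and 1.25 after knockdown and 1.34, 1.41 and 1.39 in the controls. Knockdown a and b had the highest ratios and knockdown c the lowest, a mean log2 difference of 0.12 between groups (exact permutation p = 0.40, two-sided, where the smallest possible is 0.10). It was 0.24 without knockdown c and 0.04 without knockdown b. The SMC1A to SMC3 ratio was 0.954, 0.995 and 1.04 in knockdown and 0.985, 0.898 and 0.928 in the controls, a mean log2 difference of 0.09 (exact permutation p = 0.20, two-sided). An SMC2 to SMC4 ratio could not be formed. The summed counts of SMC2, NCAPH and NCAPD2 came to 0.310, 0.325 and 0.298 of the summed cohesin and NIPBL counts in knockdown, and to 0.282, 0.286 and 0.284 in the controls. All 3 knockdown values were above the controls, by 0.13 on the log2 scale, which is a description of the sum and was not tested. With STAG1 and STAG2 left out of the cohesin sum, a choice made after the values were seen, this difference was 0.06 and the groups did not overlap (0.498 to 0.51 against 0.479 to 0.488). The loader NIPBL, with a span of 190 kb, stayed in that sum, while SMC2, NCAPH and NCAPD2 span 37.9 to 53.2 kb. The part of gene span in these ratios was not tested. Set against the summed counts of SMC1A, SMC3 and RAD21 alone, the groups overlapped, with knockdown a below controls b and c. The separation is therefore shown only for sums that hold NIPBL.

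Long genes as a class were also lowest in knockdown a and b. STAG1 covers 416 kb, the longest span of the 10 members, which otherwise cover 28.8 to 190 kb. Among the 1243 genes over 200 kb with a mean of at least 5 CPM, the median log2 difference from the control mean was -0.13 in knockdown a, -0.27 in b and -0.00033 in c, and 0.04, -0.07 and 0.03 in control a, b and c. For STAG1 itself the differences were -0.31, -0.37 and 0.01 in knockdown a, b and c. Among the 3579 genes under 20 kb the medians were 0.03, 0.13 and 0.02 after knockdown and 0.03, 0.0016 and -0.03 in the controls. With each library's trend on gene length removed, the STAG1 log2 fold change was -0.14 ± 0.10 (adjusted p = 0.537, edgeR). The part of gene span in the STAG1 difference was not tested beyond this fit.

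**Figure D3:**
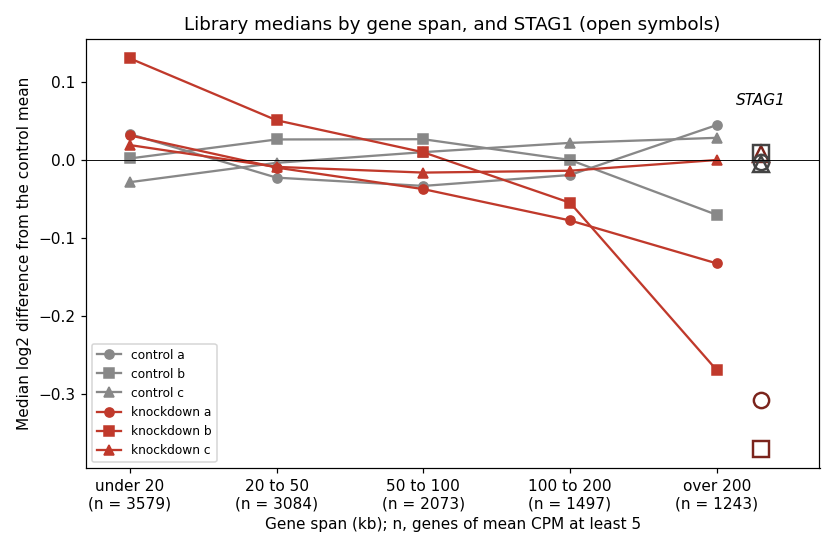
Median log2 difference from the mean of the controls over genes in 5 ranges of gene span (filled symbols and lines; grey, control; red, ALR knockdown), with STAG1 at the right as open symbols. Medians of knockdown a and b fall with span to -0.13 and -0.27, while knockdown c stays near 0. In STAG1, too, knockdown a and b are the lowest libraries.

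Related genes were counted from lists of cohesin regulators, other condensin subunits, the SMC5/6 complex and mitotic chromosome proteins. Of the 34 tested, 0 passed the adjusted threshold with edgeR or limma-voom, and 4 had an unadjusted p under 0.05 in edgeR (14.3% of all genes). DESeq2 called 1 of them, NSMCE2 (adjusted p = 0.0391), where it called 2.72% of all genes. Among the 18 cohesin regulators and meiotic subunits, 9 were above 0 (54.4% of all genes) and 9 below (median log2 fold change -0.01). REC8, the meiotic kleisin, had 56.2, 60.4 and 54.8 CPM after knockdown and 67.8, 63.1 and 62.8 in the controls, -0.18 ± 0.07 (adjusted p = 0.271, edgeR). ESCO1, an acetyltransferase of SMC3, was at 114 ± 1.20 against 126 ± 4.80 CPM, -0.14 ± 0.06 (adjusted p = 0.332, edgeR). These were the 2 of the 18 genes whose knockdown libraries all lay below the controls (9.37% of all genes). In 3 of the 18 they all lay above (9.55% of all genes): CDCA5 (log2 fold change 0.09), the separase ESPL1 (0.15) and the meiotic SMC1B (0.35). RAD21L1, a further meiotic kleisin, was at 0.739 ± 0.486 against 0.324 ± 0.125 CPM, too low to size a difference at this depth. WAPL, the releasing factor (in the table under its older symbol WAPAL), had 216, 212 and 203 CPM after knockdown and 207, 224 and 210 in the controls. Its partners PDS5A and PDS5B had log2 fold changes of -0.08 and -0.11, and MAU2, the partner of NIPBL, -0.06.

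The 5 other condensin genes lay between -0.04 and 0.06 on the log2 scale, with adjusted p of 0.761 to 0.989 in edgeR. NCAPH2 and NCAPD3, subunits of condensin II, had log2 fold changes of 0.06 ± 0.08 and 0.03 ± 0.06, and NCAPG2, also of condensin II, -0.04 ± 0.06. The SMC5/6 complex acts in DNA repair and replication, and 7 of its 9 listed genes could be tested, since NSMCE3 and EID3 lie inside other genes and were listed at 0. NSMCE2, its SUMO ligase, had 83.5, 79.0 and 115 CPM after knockdown and 121, 113 and 121 in the controls, -0.36 ± 0.11 (adjusted p = 0.190, edgeR). This gene covers 275 kb, and as in STAG1, knockdown a and b lay below all controls and knockdown c did not. SLF1, which helps recruit the complex, was at -0.15 ± 0.07 (adjusted p = 0.347, edgeR), and NSMCE1 at 0.20 ± 0.11 (adjusted p = 0.460, edgeR). TOP2A and MKI67, which shape mitotic chromosomes, were at 0.14 ± 0.07 and 0.17 ± 0.09, with edgeR adjusted p of 0.402 and 0.427, and KIF22 at 0.03 ± 0.07.

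**Figure D4:**
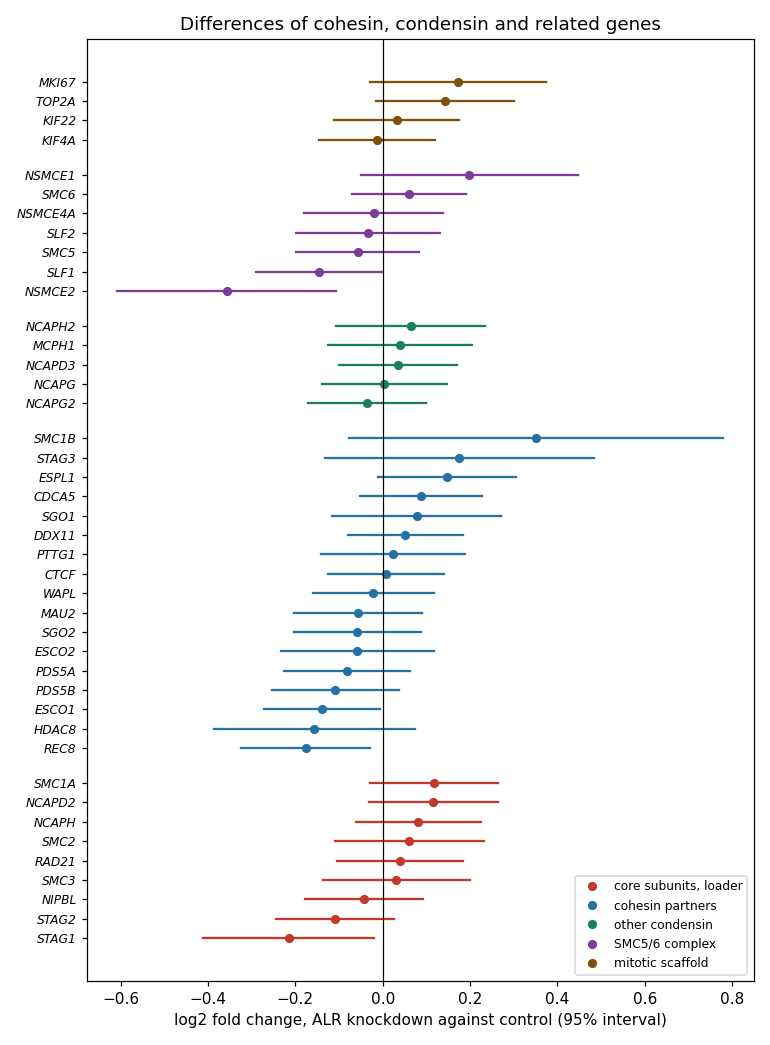
Log2 fold change with its 95% interval for the 9 members and 33 related genes, grouped by complex (RAD21L1, under 1 CPM in the controls, is left out). The intervals of STAG1, REC8, ESCO1, SLF1 and NSMCE2 lie below 0 before adjustment, and none of these genes passes after it in edgeR.

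Cohesin loading and condensin expression follow the cell cycle, so cell cycle genes were counted too. Of 15 genes of the G1/S transition, 13 were above 0 (54.4% of all genes), with a median log2 fold change of 0.13. Of the 15, 4 had an unadjusted p under 0.05 (14.3% of all genes) and 0 passed in edgeR. MCM2, a subunit of the replicative helicase, was at 208 ± 14.7 against 178 ± 1.15 CPM, 0.23 ± 0.07 (adjusted p = 0.159, edgeR; 0.0473 with DESeq2). UHRF1, which guides maintenance of DNA methylation, was at 0.22 ± 0.07 (adjusted p = 0.168, edgeR), and MCM3 at 0.16 ± 0.06 (adjusted p = 0.277, edgeR). Of 18 genes of G2 and mitosis, 13 were above 0 (54.4% of all genes), with a median of 0.05. Of the 18, 2 had an unadjusted p under 0.05 (14.3% of all genes) and 0 passed in edgeR. CDC20, an activator of the anaphase-promoting complex, was at 0.21 ± 0.07 (adjusted p = 0.227, edgeR), UBE2C at 0.23 ± 0.10 (adjusted p = 0.343, edgeR) and TPX2 at 0.13 ± 0.06 (adjusted p = 0.394, edgeR). The summed level of the G1/S list was 2419 to 2694 CPM after knockdown and 2282 to 2364 in the controls, and that of the G2 and mitosis list 2159 to 2429 and 2151 to 2270. Their part in the values of the condensin genes was not tested.

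The gene most like each member over the 6 libraries was sought among the other members and the related genes, 42 in all, by the root-mean-square difference of log2 CPM centred per gene. SMC3 and SMC2 were each nearest to the other, at 0.027, and RAD21 was nearest to SMC3 at 0.036. SMC1A, NCAPH and NCAPD2 were each nearest to CDCA5 (sororin, which protects cohesin from release), at 0.040, 0.027 and 0.026. STAG2 was nearest to ESCO1 at 0.032 and NIPBL to NCAPG2 at 0.028. STAG1 was nearest to HDAC8, the deacetylase that recycles SMC3, at 0.055, with a median of 0.187 to the whole set. HDAC8 covers 243 kb and had 58.1, 52.9 and 74.7 CPM after knockdown and 70.1, 66.2 and 70.3 in the controls. Of the 43 members and related genes, 4 cover more than 200 kb. In STAG1, NSMCE2 and HDAC8, knockdown a and b lay below all controls and knockdown c did not. The same order was seen in the shorter PDS5B (192 kb) and SMC5 (95.9 kb). In MCPH1 (242 kb), with 51.5, 47.3 and 52.5 CPM after knockdown and 45.3, 48.8 and 52.8 in the controls, all 3 knockdown values lay within the range of the controls.

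Levels between members depended on what length they were divided by. Per kb of exon, control levels ran from 46.1 ± 1.92 CPM per kb for SMC3 and 39.8 ± 1.30 for STAG2, through 30.0 ± 0.162 for STAG1, to 21.2 ± 0.371 for NIPBL and 17.6 ± 0.400 for SMC1A. RAD21 (24.2 ± 0.545), SMC2 (22.3 ± 1.27) and NCAPH (21.8 ± 0.434) were close, and the last pair did not differ beyond its spread. Per kb of gene span, RAD21 (5.20 ± 0.117) and SMC3 (5.14 ± 0.214) led without differing beyond their spread, and STAG1 was the lowest at 0.566 ± 0.00306. Since genes lying inside others were mostly listed at 0 even without shared exons, it is not known which length fits these counts, and the order is a description.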

How the data were processed

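RNA was profiled in 6 libraries of H9 cells, 3 per group, by directional sequencing, per the labels' protocols. The authors deposited raw read counts per gene symbol, whole numbers with totals of 25087629 to 36576752. Trimmomatic 0.39, STAR 2.7.8a, featureCounts and Subread 2.14.2 and build hg38 are named per the submitters' processing notes. Their settings, the annotation, strand and the handling of overlapping genes or multi-mapping reads are not given in the sources used here. Overlaps and exon lengths came from GENCODE 29 (GRCh38), coordinates and spans from RefSeq (GRCh38.p14); 81.5% of tested genes had a span and 81.1% a GC content.

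Counts were tested with edgeR 4.0.16 in R 4.3.3 (filterByExpr, TMM, quasi-likelihood F test, group as the only term), with Benjamini-Hochberg adjustment over all 19721 tested genes. Ratios had exact permutation tests. The procedure was tested on simulated counts. Alternatives were other scalings, no filter, DESeq2 1.42.0, limma-voom (limma 3.58.1), thinning, a replicate block, length and GC trends (splines, 5 degrees of freedom) and leaving out each library. Named genes were all members, up to 3 genes of smallest p per related list, and each member's nearest gene. HDAC8 and CDCA5 came from that rule. MCPH1, WAPL, PDS5A, PDS5B, MAU2, ESPL1, SMC1B, SMC5, NSMCE3, EID3 and the marker genes were named after their values were seen. Members and lists were chosen with earlier results of these data known.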

Additional observations from a re-analysis of the deposited data

How the results depend on the processing

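SMC1A (0.07 to 0.15), STAG2 (-0.13 to -0.06), NIPBL (-0.08 to -0.0019), SMC2 (0.0055 to 0.11), NCAPH (0.03 to 0.11) and NCAPD2 (0.05 to 0.14) kept their sign and did not pass in any of the 16 alternatives, but their sizes moved by more than 1.5 times in some. SMC3 changed sign with the length trend removed (-0.0066) and when libraries were left out (-0.017 to 0.088), as did RAD21 (-0.0040, and -0.0028 to 0.068). STAG1 was negative in all 16 (-0.36 to -0.15 with a library left out) and passed in 1, without knockdown c, so the count of members past the threshold ran from 0 to 1. The condensin to cohesin difference was 0.0599 without STAG1 and STAG2 but with NIPBL, an alternative chosen after seeing the data. Without NIPBL as well, the groups overlapped. Over all genes, the count (155) was 1064 with no filter, 536 with DESeq2's Wald test, 258 with the length trend and 237 with the GC trend removed, and 26 to 1309 with a library left out. Why these counts differ was not tested. No alternative moved the median of all genes by more than 0.1. Libraries of the same letter were not paired by their values (correlations of deviations 1.23e-05, 0.116 and -0.0251 for a, b and c). With the replicate block 393 genes passed, 0 of them members, and STAG1 was at -0.22. With 3 libraries a group, the SE of a member was 0.06 to 0.09 on the log2 scale, which limits what could be seen.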
